A study of Oryza sativa with 16 samples.

Results

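Auxin controls transcription through a short chain of proteins. Aux/IAA proteins are repressors that hold auxin response factors (ARFs), the DNA-binding proteins of auxin-regulated promoters, in an inactive complex, and auxin brings the Aux/IAA proteins to F-box receptors of the TIR1/AFB family for degradation. Many Aux/IAA genes are themselves induced by auxin, so that their transcripts are used as early read-outs of the hormone, and the balance of Aux/IAA and ARF members differs between organs. In rice, members of both families act in crown and lateral root formation, leaf angle, tillering and panicle development.

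The genes described here were taken by name, as every gene of the deposited tables whose name starts with IAA or ARF and a number, with or without Os in front. The rule gave 58 of 37849 genes, 31 Aux/IAA genes and 27 ARF genes, and used no measured value. The names mix several numbering systems, so that OsARF16 (Os01g0236300) and ARF16 (Os06g0196700), or OsARF8 (Os02g0628600) and ARF8 (Os04g0671900), are different genes, and the endings _1 and _2 mark different genes that share a name. Arf75 (Os03g0345100), OsARF7b (Os08g0520500) and OsARF3_2 (Os08g0248900) are included by their names alone. Their exon lengths are 1558, 608 and 1052 bases, short for the ARF family, and whether they encode auxin response factors was not tested. OsARF20 (Os07g0183100), with 1080 bases, is also short, and the same limit holds for it.

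RNA was sequenced from roots and shoots of seedlings of 2 rice genotypes, N22 (Nagina 22), a drought-tolerant aus variety, and IR64, a high-yielding indica variety. Seedlings of each genotype were grown in vermiculite and perlite under low nitrogen with full water (N-W+), under low water with full nitrogen (N+W-), under both stresses (N-W-) or under optimal supply (N+W+), with ammonium nitrate as the nitrogen source in all of them. RNA of the biological replicates was pooled in equimolar amounts before library construction, which left 1 library for each genotype, tissue and treatment and 16 libraries in all. The labels contradict each other on the doses: the treatment protocol names 0.4 mM ammonium nitrate for nitrogen stress and 0.08 mM otherwise, the description of the N-W+ samples names 0.04 mM, and daily water is 10 mL under water stress and 100 mL otherwise. The protocol doses thus run against the group names, whereas the doses in the study's methods are lower for N- than for N+, as the titles say. Groups were therefore kept as the sample titles name them. The labels also give an age of 21 days for the water-stressed plants and 15 days for the well-watered ones, whereas the study's methods have seedlings of every treatment sampled at the same age, with water limited only in the last week. If the labels hold, low water and age cannot be told apart in any comparison of the 2 water levels. Because each group has 1 library, the genotypes are the only replication for the treatments. The comparison of genotypes rests on the treatments, and that of tissues on the pools of plants. The p-values measure the spread between these pooled libraries.

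Exon reads per library were between 8272195 and 13675454 in roots and between 2420338 and 11379518 in shoots, with medians of 10372369 and 7241988. The shallowest library, N22 shoots under N-W+, held 2420338 reads, and 1 read there was worth 0.309 CPM, the unit of reads scaled to the library size that is used for comparisons of 1 gene between libraries. The tissue labels were borne out by marker genes, since 9 of 9 green leaf genes were lower in roots and 3 of 3 root genes were higher there. A set of 6 KNOX homeobox genes, markers of the shoot meristem and stem, summed to 145.5 CPM in IR64 roots under N-W- and 52.4 CPM in IR64 roots under N+W+. The other 2 IR64 root libraries held 7.65 CPM (N-W+) and 13.5 CPM (N+W-), and the 4 N22 root libraries between 8.02 and 11.7 CPM. The IR64 root libraries under N-W- and N+W+ thus stand apart in the KNOX sum, mostly through OSH15 (93.8 and 22.2 CPM) and OSH6 (36.4 and 20.0 CPM). OSH1 (8.04 and 5.43 CPM) and OSH3 (7.0 and 4.64 CPM) were also highest there among roots. OsH10 was at 0.0 CPM in both and OsH43 at 0.284 and 0.113 CPM. Whether these libraries held shoot tissue was not tested. Without these 2 libraries the fit within roots kept 1 residual degree of freedom and that of nitrogen by genotype could not be made. Every other comparison with roots was also run without them.

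The Aux/IAA genes lie on 10 chromosomes and are short genes, with a median exon length of 1268 bases and a median of 5 exons. The ARF genes lie on 11 chromosomes and are longer, with a median exon length of 2969 bases and a median of 14 exons. OsIAA28 (Os11g0221200) had 0 reads over all 16 libraries, OsIAA29 (Os11g0221300) had 1 read and OsARF20 (Os07g0183100) had 4 reads. After the filter on low counts, 24 Aux/IAA and 25 ARF genes were tested in roots, and 26 and 23 in shoots. The 4 Aux/IAA genes tested in neither tissue were OsIAA21_2, OsIAA26, OsIAA28 and OsIAA29, and the 2 ARF genes were OsARF13 and OsARF20. OsIAA4, OsIAA8 and OsIAA27 were tested in shoots only, and OsIAA7, OsARF11 and OsARF7b in roots only. Of the reads of OsARF7 (Os02g0557200), 87.5% were mapped uniquely, and the shares were 96.5% for OsIAA13 (Os03g0742900), 97.3% for OsARF9 (Os04g0442000) and 85.7% for OsIAA21_2 (Os06g0355300), which makes the levels of these 4 genes less certain. All reads of the other members with a read were unique.

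Levels of different genes were compared per transcript length, in TPM, a unit that divides the reads by exon length. In roots the most abundant Aux/IAA transcript by median was OsIAA13, a gene known for its role in lateral root initiation in rice, with a lowest, median and highest level of 214.7, 421.4 and 606.6 TPM over the 8 root libraries. OsIAA19 (Os05g0559400) followed with 149.7, 193.3 and 240.7 TPM and OsIAA30 (Os12g0601300) with 92.2, 187.6 and 306.8 TPM, and the ranges of all 3 genes overlapped in part. In shoots OsIAA17 (Os05g0230700) led the family with 146.3, 475.4 and 1025.8 TPM. OsIAA13 had 90.7, 244.9 and 829.5 TPM there, and OsIAA21_1 (Os06g0335500) had 24.4, 150.1 and 363.3 TPM. The shoot ranges of all 3 genes overlapped.

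ARF transcripts were less abundant. OsARF8, one of the ARF genes that miR160 targets, was highest by median in roots with a lowest, median and highest level of 64.9, 78.2 and 91.5 TPM, ahead of OsARF10_1 (Os04g0519700; 41.4, 67.5 and 83.2 TPM), also a miR160 target, and OsARF4 (Os01g0927600; 52.5, 65.7 and 104.4 TPM). These 3 root ranges overlapped. In shoots OsARF15 (Os05g0563400), a target of the trans-acting siRNA tasiR-ARF, led with 40.6, 111.3 and 124.6 TPM, followed by OsARF4 (38.3, 55.1 and 86.8 TPM) and OsARF10_2 (Os06g0685700; 18.8, 32.8 and 35.7 TPM). The summed level of the Aux/IAA family in roots was between 1384.3 and 2322.9 TPM, and that of the ARF family between 479.8 and 746.8 TPM. The heat map gives the level of every member in every library.

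**Figure D1:**
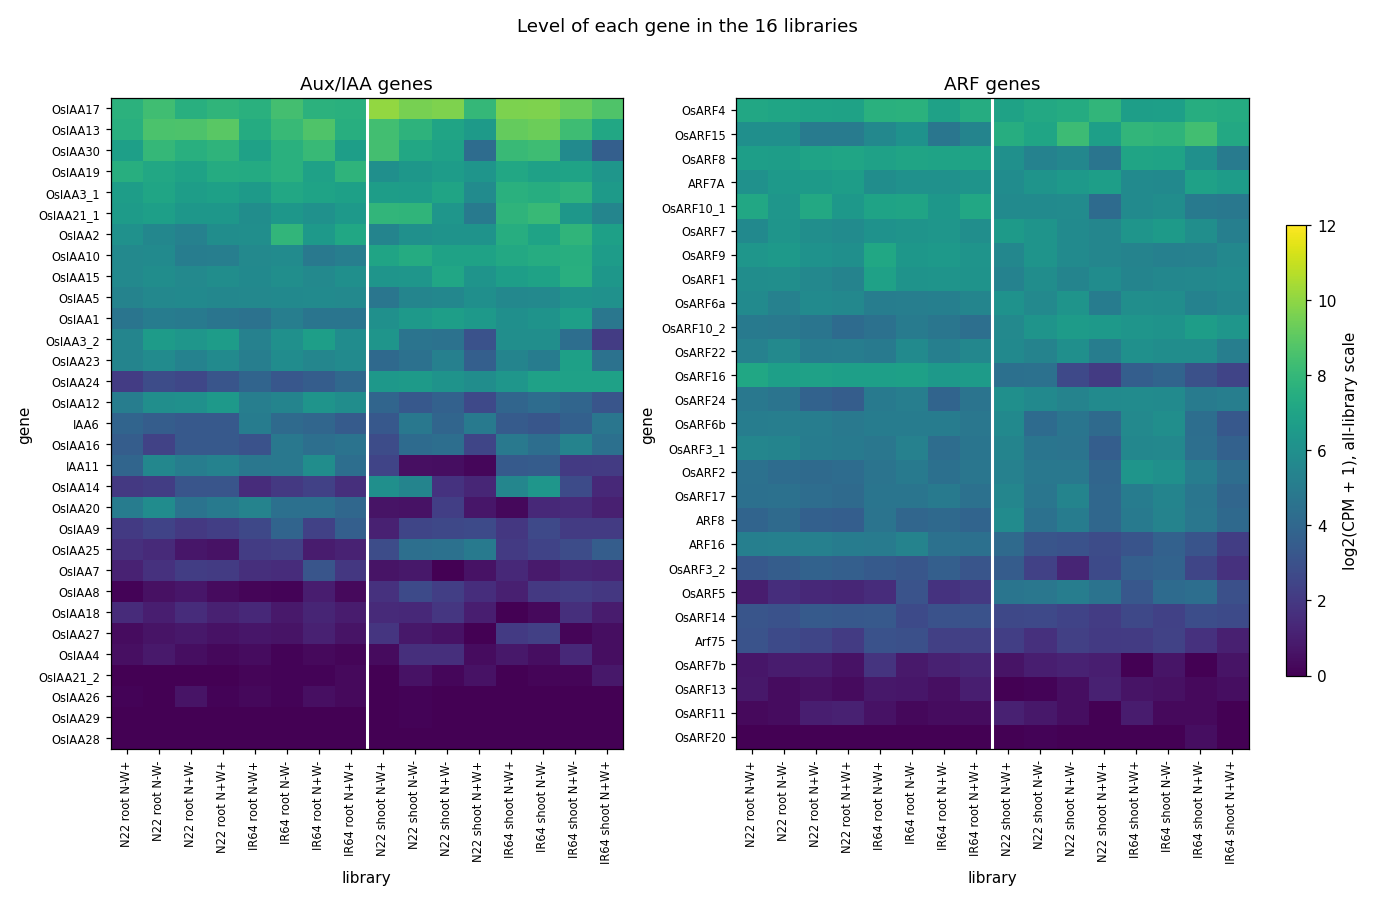
Level of each Aux/IAA gene (left panel) and ARF gene (right panel) in the 16 libraries, as log2 of CPM plus 1 on a scale shared by all libraries, with 1 column per library and roots left of shoots. Brighter cells are higher. OsIAA20 and OsARF16 are brighter in roots than in shoots, OsIAA24 is the reverse, and OsIAA14, OsIAA30 and OsIAA21_1 are brighter in the low-nitrogen shoots than in the other shoots.

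Between tissues, each pool of plants gave a root and a shoot library, and the 2 were compared within the 8 pools. Among the members called, OsIAA20 (Os06g0166500), IAA11 (Os03g0633500) and OsARF16 had the largest ratios in favour of roots, and OsIAA24 (Os07g0182400), OsIAA8 (Os02g0723400) and OsARF5 (Os02g0141100) the largest in favour of shoots. A gene was called at an adjusted p under 0.05 in edgeR's quasi-likelihood test, with Benjamini-Hochberg adjustment over all genes tested. Of 27 Aux/IAA genes tested over the 16 libraries, 5 were higher and 8 lower in roots, and of 25 ARF genes 7 were higher and 5 lower. Among all genes tested the share called was 42.2%, with 22.1% higher and 20.1% lower in roots, so that the members were called about as often as genes in general. The members' median log2 ratio of roots over shoots was -0.18 for the Aux/IAA genes and 0.27 for the ARF genes, and 0.13 over all genes. In bulk tissue, fewer cells of a type and less RNA per cell cannot be told apart, here and in all later comparisons.

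OsIAA20 had a lowest, median and highest level of 15.0, 26.1 and 55.8 CPM in roots and 0.18, 0.863 and 3.63 CPM in shoots, with no overlap (log2 ratio 4.65, SE 0.56, edgeR adjusted p = 9.22e-05). IAA11, which acts in lateral root initiation, had 14.3, 30.3 and 57.8 CPM in roots and 0.163, 3.13 and 10.3 CPM in shoots (3.62, SE 0.82, edgeR adjusted p = 0.00498). Its neighbour OsIAA12 (Os03g0633800) had 32.5, 58.5 and 87.8 CPM in roots and 5.23, 13.0 and 17.7 CPM in shoots (2.25, SE 0.34, edgeR adjusted p = 0.000441). Neither gene's root and shoot ranges overlapped. OsIAA7 (Os02g0228900; log2 ratio 1.84) and OsIAA19 (0.77) were the other Aux/IAA genes higher in roots.

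The direction was the reverse for OsIAA24, with 3.4, 8.13 and 15.4 CPM in roots and 58.6, 86.8 and 116.8 CPM in shoots (log2 ratio -3.49, SE 0.28, edgeR adjusted p = 5.74e-06). OsIAA8 was near the limit of detection in roots, at 0.081, 0.256 and 0.937 CPM, and had 1.08, 2.94 and 5.56 CPM in shoots (-3.19, SE 0.43, edgeR adjusted p = 0.000178). Roots and shoots did not overlap for either gene. OsIAA10 (Os02g0817600) had 27.8, 41.8 and 53.5 CPM in roots and 99.1, 139.4 and 183.1 CPM in shoots (-1.77, SE 0.21, edgeR adjusted p = 6.91e-05), again without overlap. OsIAA25 (Os08g0109400; log2 ratio -2.68), OsIAA4 (Os01g0286900; -1.49), OsIAA17 (-1.47), OsIAA1 (Os01g0178500; -1.44) and OsIAA15 (Os05g0178600; -0.90) completed the Aux/IAA genes lower in roots.

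Among the ARF genes, OsARF16 had a lowest, median and highest level of 84.9, 109.7 and 140.5 CPM in roots and 3.27, 9.0 and 21.5 CPM in shoots (log2 ratio 3.60, SE 0.35, edgeR adjusted p = 1.96e-05). ARF16, the gene known for its role in root responses to auxin and phosphate, had 20.5, 34.0 and 40.7 CPM in roots and 3.58, 7.65 and 16.9 CPM in shoots (1.98, SE 0.22, edgeR adjusted p = 5.13e-05). Neither overlapped between tissues. OsARF5 was lower in roots, with 0.972, 1.95 and 7.38 CPM there and 6.62, 20.8 and 33.4 CPM in shoots (-3.02, SE 0.47, edgeR adjusted p = 0.000469), and its highest root value came from IR64 under N-W-, the library with the most KNOX reads. OsARF15 had 25.4, 44.7 and 68.2 CPM in roots and 107.3, 199.1 and 331.1 CPM in shoots (-2.14, SE 0.33, edgeR adjusted p = 0.000425).

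The ARF genes that share a small-RNA regulator did not all go the same way. Of the miR160 targets, OsARF10_1 was higher in roots (79.3, 125.5 and 150.2 CPM against 17.1, 52.2 and 58.9 CPM in shoots, log2 ratio 1.51) and OsARF8 as well (1.11), whereas OsARF10_2 was lower in roots (17.1, 24.8 and 30.9 CPM against 49.3, 77.0 and 102.7 CPM in shoots, log2 ratio -1.70). OsARF22 (Os10g0479900), the other miR160 target, had a log2 ratio of -0.33 and was not called (edgeR adjusted p = 0.281). Of the tasiR-ARF targets, OsARF15 was lower in roots and OsARF14 (Os05g0515400; 0.68) higher, whereas OsARF2 (Os01g0670800; -0.60, edgeR adjusted p = 0.086) and OsARF3_1 (Os01g0753500; 0.29, edgeR adjusted p = 0.407) were not called. These groups were formed after the values were seen. ARF8 (-0.88) and OsARF24 (Os12g0479400; -1.19) were lower in roots. Arf75 (0.88), a member by its name alone, and OsARF9 (0.80) were higher.

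**Figure D2:**
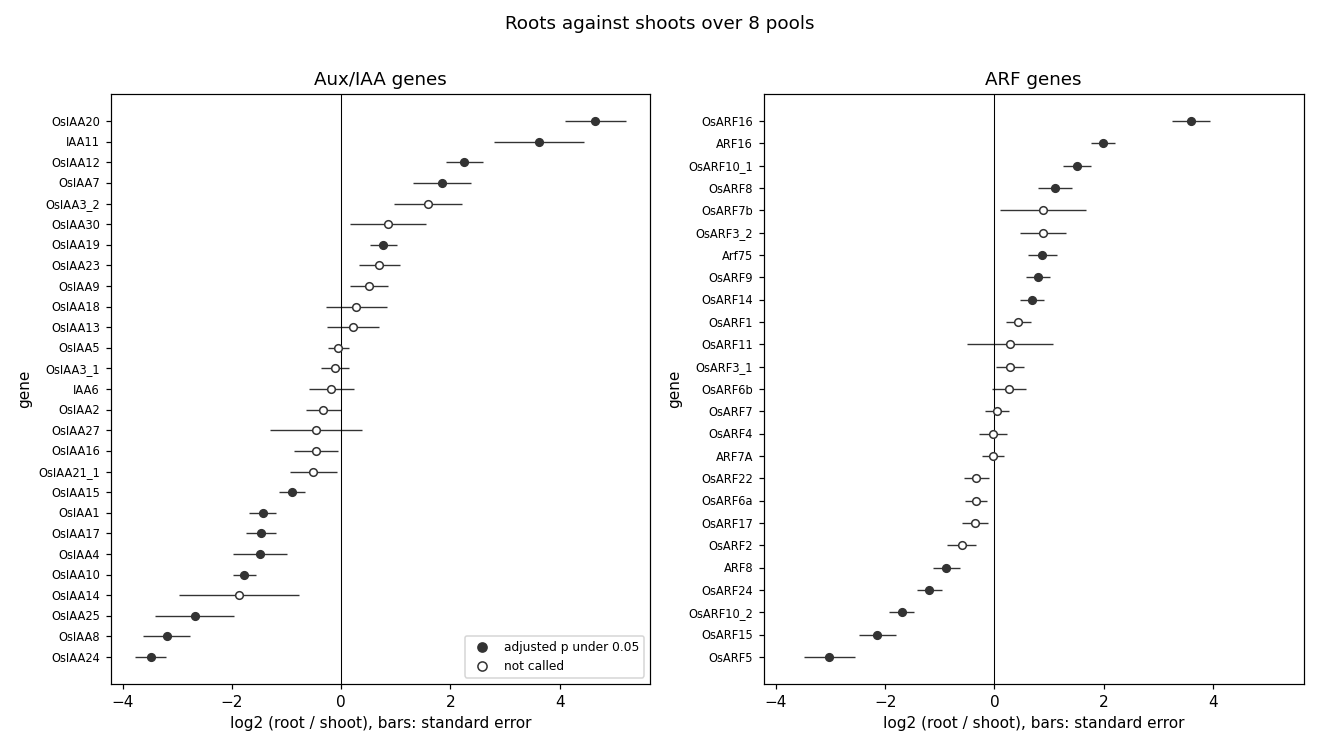
Log2 ratio of roots over shoots with its standard error for each tested Aux/IAA and ARF gene, from the comparison within the 8 pools of plants, where filled symbols mark genes with an adjusted p under 0.05. OsIAA20 (4.65) and OsARF16 (3.60) stand at the root end and OsIAA24 (-3.49) and OsARF5 (-3.02) at the shoot end.

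Leaving out each library in turn left 11 to 14 Aux/IAA and 10 to 12 ARF genes called. Without the 2 IR64 root libraries that stand apart, chosen after seeing the data, 11 Aux/IAA and 8 ARF genes were called, beside 31.9% of all genes. OsARF5 then had a log2 ratio of -3.61.

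In shoots, low nitrogen was accompanied by higher levels of a small set of Aux/IAA and ARF transcripts, with OsIAA14 (Os03g0797800) far ahead of the rest. The comparison set the 4 low-nitrogen libraries (N-W+ and N-W-) against the 4 high-nitrogen ones (N+W- and N+W+), averaged over water and genotype. Of 26 Aux/IAA genes, 6 rose and 1 fell, and of 23 ARF genes 5 rose and none fell. Over all genes tested the share called was 18.2%, with 10.7% higher and 7.55% lower. The Aux/IAA genes had a median log2 change of 0.13 and the ARF genes one of 0.63, against 0.01 over all genes, and 20 of the 23 ARF genes had a positive value.

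OsIAA14 had 67.4 CPM (N-W+) and 39.2 CPM (N-W-) in N22 and 41.3 and 76.8 CPM in IR64 under low nitrogen, against 2.2 CPM (N+W-) and 1.35 CPM (N+W+) in N22 and 4.78 and 1.43 CPM in IR64. Every low-nitrogen library was thus well above every high-nitrogen library (log2 change 4.67, SE 0.41, edgeR adjusted p = 0.00162). OsIAA21_1 had 260.0 and 214 CPM in N22 and 211 and 263 CPM in IR64 under N-W+ and N-W-, against 71.7 and 26.1 CPM in N22 and 69.5 and 38.2 CPM in IR64 under N+W- and N+W+ (2.32, SE 0.26, edgeR adjusted p = 0.00325). Its groups did not overlap either, and the 4 low-nitrogen values lay close together.

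OsIAA30 and OsIAA3_2 (Os12g0601400), which lie beside each other on chromosome 12, showed the same order of libraries. OsIAA30 had 371 and 135 CPM in N22 and 259 and 297 CPM in IR64 under N-W+ and N-W-, against 105 and 16.3 CPM in N22 and 45.7 and 10.2 CPM in IR64 under N+W- and N+W+ (log2 change 3.11, SE 0.43, edgeR adjusted p = 0.00557). OsIAA3_2, whose gain-of-function form weakens the auxin response of rice, had 82.2 and 21.7 CPM in N22 and 56.6 and 57.2 CPM in IR64 under N-W+ and N-W-. It had 19.8 and 6.6 CPM in N22 and 16.3 and 3.03 CPM in IR64 under N+W- and N+W+ (2.50, SE 0.43, edgeR adjusted p = 0.0109). For both genes the N22 N-W- library was the lowest of the low-nitrogen group and N22 N+W- the highest of the other, and the groups still did not overlap.

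OsIAA13 had 355 and 202 CPM in N22 and 538 and 610.4 CPM in IR64 under N-W+ and N-W-, against 115 and 85.0 CPM in N22 and 267 and 131 CPM in IR64 under N+W- and N+W+ (log2 change 1.54, SE 0.29, edgeR adjusted p = 0.0141). The groups overlapped between genotypes, through IR64 N+W- and N22 N-W-, but not within either genotype. OsIAA27 (Os11g0221000) rested on few reads, with 2.78 and 0.656 CPM in N22 and 2.85 and 3.71 CPM in IR64 under low nitrogen, against 0.47 and 0 CPM in N22 and 0.109 and 0.319 CPM in IR64 (3.40, SE 0.97, edgeR adjusted p = 0.0496).

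OsIAA25 was the Aux/IAA gene that fell. It had 6.49 and 18.7 CPM in N22 and 2.85 and 4.16 CPM in IR64 under N-W+ and N-W-, against 19.3 and 26.4 CPM in N22 and 5.11 and 9.56 CPM in IR64 under N+W- and N+W+ (log2 change -1.01, SE 0.28, edgeR adjusted p = 0.0484). Within each genotype the low-nitrogen values were below the others, and N22 was above IR64 at each treatment. IAA11 had a change of 2.28 (SE 0.68) that did not pass the test (edgeR adjusted p = 0.0567). Its levels were 4.95 and 0.375 CPM in N22 and 9.06 and 10.0 CPM in IR64 under low nitrogen, against 0.314 and 0.15 CPM in N22 and 2.61 and 2.87 CPM in IR64.

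OsARF16, the ARF gene with the largest called change, had 22.3 and 20.0 CPM in N22 and 10.4 and 13.0 CPM in IR64 under N-W+ and N-W-. It had 4.86 and 3.0 CPM in N22 and 5.87 and 3.98 CPM in IR64 under N+W- and N+W+ (log2 change 1.86, SE 0.35, edgeR adjusted p = 0.0148). The groups did not overlap, although even the highest shoot value was below the lowest root value of this gene. OsARF3_1, a tasiR-ARF target, had 45.1 and 22.3 CPM in N22 and 42.8 and 46.4 CPM in IR64 under low nitrogen, against 21.6 and 10.2 CPM in N22 and 17.2 and 11.0 CPM in IR64 (1.42, SE 0.30, edgeR adjusted p = 0.0201). OsARF2, another tasiR-ARF target, had 41.1 and 25.1 CPM in N22 and 69.3 and 62.1 CPM in IR64, against 24.6 and 12.7 CPM in N22 and 28.4 and 16.6 CPM in IR64 (1.24, SE 0.27, edgeR adjusted p = 0.0223). The N22 N-W- library again lay beside the high-nitrogen libraries for both genes.

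OsARF8 had 68.0 and 35.9 CPM in N22 and 119 and 121 CPM in IR64 under N-W+ and N-W-, against 41.2 and 22.6 CPM in N22 and 54.4 and 27.1 CPM in IR64 under N+W- and N+W+ (log2 change 1.19, SE 0.31, edgeR adjusted p = 0.0376). OsARF7 had 98.9 and 66.8 CPM in N22 and 71.5 and 89.2 CPM in IR64, against 47.8 and 40.8 CPM in N22 and 50.5 and 31.4 CPM in IR64 (0.95, SE 0.25, edgeR adjusted p = 0.0393). Only OsARF7 of the pair had groups that did not overlap. OsARF15, the most abundant ARF transcript of shoots, had a log2 change of 0.03 (SE 0.25, edgeR adjusted p = 0.943). OsARF6b (Os12g0613700), a miR167 target, had a change of 1.51 (SE 0.46) and OsARF3_2, a member by its name alone, one of 1.54 (SE 0.55). Neither passed the test (edgeR adjusted p = 0.0604 and 0.093).

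**Figure D3:**
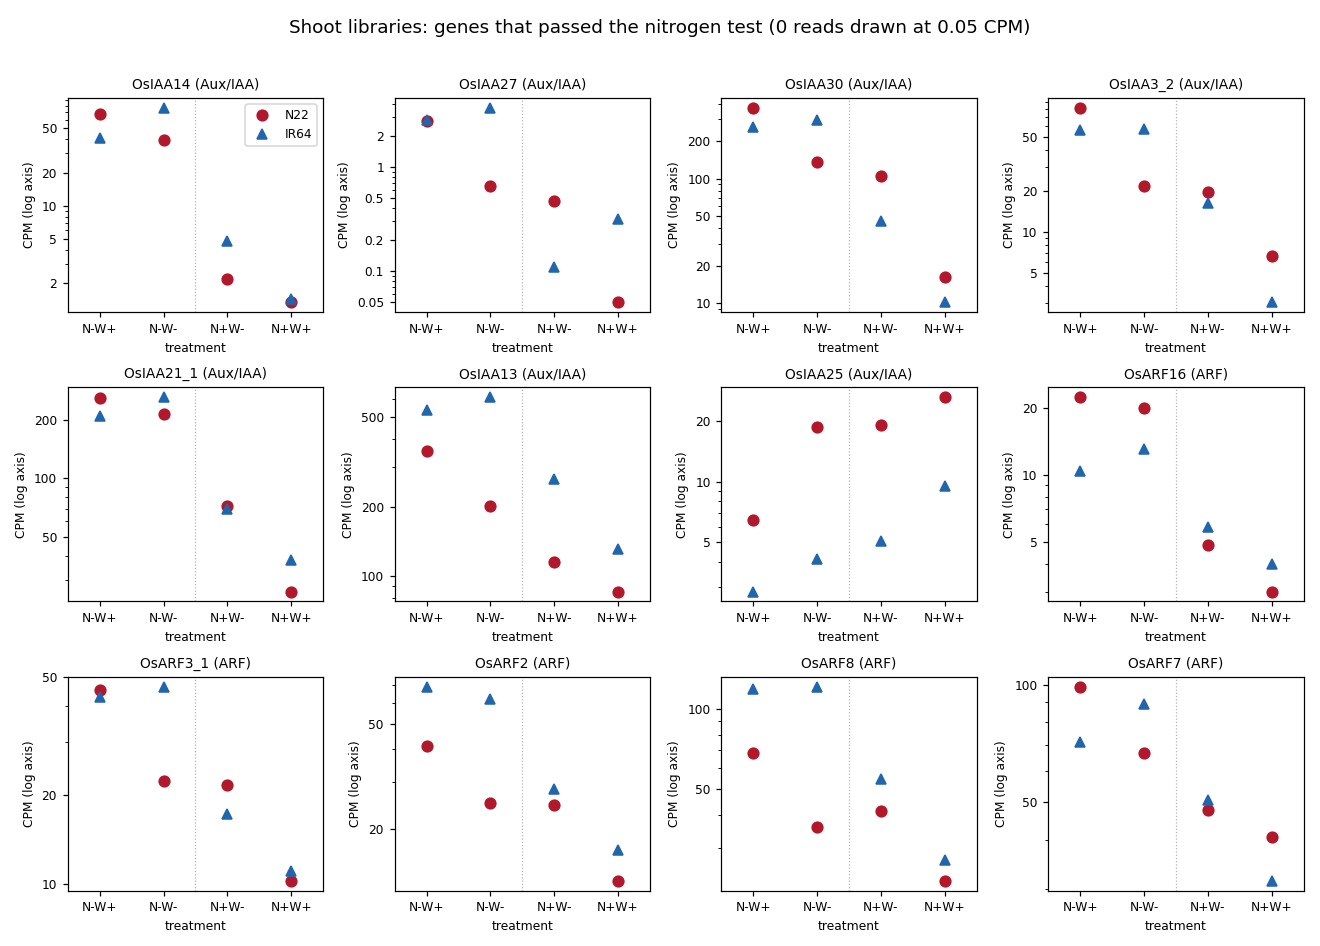
Level in CPM (log axis) of the 12 genes called for low nitrogen in shoots, in each of the 8 shoot libraries, with the low-nitrogen treatments on the left of each panel. Circles are N22, triangles IR64, and libraries with 0 reads are drawn at 0.05 CPM. OsIAA14, OsIAA21_1, OsIAA30, OsIAA3_2, OsIAA27, OsARF16, OsARF3_1 and OsARF7 have no overlap between low and high nitrogen, and OsIAA25 is the gene that fell. The genes were picked by the test on these same libraries, so the missing overlap is no separate support.

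Summed over the family, Aux/IAA transcripts in shoots reached 3536.4 TPM (N-W+) and 2044.6 TPM (N-W-) in N22 and 2788.6 and 3496.7 TPM in IR64 under low nitrogen, against 1464.1 TPM (N+W-) and 872.4 TPM (N+W+) in N22 and 1547.4 and 688.3 TPM in IR64. On the TMM-scaled CPM scale the same sums were 2761.5 and 2230.2 CPM in N22 and 3049.7 and 3225.7 CPM in IR64 under low nitrogen, against 2051.8 and 1094.7 CPM in N22 and 2498.6 and 1395.2 CPM in IR64. The nitrogen groups were apart in TPM and overlapped in CPM, through IR64 N+W-.

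Other cell-type markers moved with low nitrogen in shoots. Of 32 tested genes of dividing cells (36 listed), 17 rose, with a median log2 change of 2.49, beside 10.7% of all genes higher and 7.55% lower. Their summed level was 495.7 and 149.5 CPM in N22 and 447.9 and 478.3 CPM in IR64 under N-W+ and N-W-, against 164.1 and 104.5 CPM in N22 and 162.0 and 116.6 CPM in IR64 under N+W- and N+W+. The N22 N-W- library, the lowest of its group for OsIAA30, OsIAA3_2 and OsARF8, was also lowest for these markers. Of 5 tested KNOX genes (6 listed) 2 rose, OSH1 (7.15) and OSH15 (4.30), and OSH1 had 0 reads in N22 N+W+ and in both IR64 high-nitrogen shoot libraries. The KNOX sum was between 5.46 and 26.9 CPM under low nitrogen and between 1.31 and 4.84 CPM under high nitrogen. Of 9 green leaf genes 6 fell and 1 rose (median -2.26), and their sum was between 10796.0 and 38822.8 CPM under low nitrogen and between 56028.1 and 176268.4 CPM under high nitrogen. The part of these cell types in the Aux/IAA and ARF changes was not tested.

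OsIAA14 (range of log2 change 4.26 to 5.17), OsIAA30 (2.57 to 3.62) and OsIAA21_1 (2.17 to 2.81) stayed called under all 13 other settings, which included leaving out each library. OsIAA25 lost its call in 9 of the 13, OsARF8 and OsARF7 in 7, and OsIAA27 and OsARF2 in 6. The call was lost in 4 for OsARF3_1, 3 for OsIAA13, 2 for OsARF16 and 1 for OsIAA3_2. The number of Aux/IAA genes called ranged from 3, without IR64 N+W-, to 8, without N22 N-W-, and was 4 without IR64 N+W+. The number of ARF genes ranged from 1 to 10. It was 10 without N22 N-W-, 2 without IR64 N-W-, and 1 without any of the 4 high-nitrogen libraries or without N22 N-W+. The share of all genes called in these fits is not given here, so such moves are not shown to be particular to the members. Scaling to library totals in place of TMM moved the median of all genes to 0.49 and made 83.0% of the called genes higher, against 58.6% with TMM. With that scaling 10 Aux/IAA genes were higher and 0 lower and 11 ARF genes were higher, with family medians of 0.60 and 1.12.

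In roots fewer members were called for low nitrogen than in shoots, as were fewer genes in general. OsIAA25 was the only member called in both tissues, in opposite directions. Its call was lost in 8 of 14 other settings in roots and in 9 of 13 in shoots. Of 24 Aux/IAA genes 2 rose, OsIAA25 and OsIAA10, and of 25 ARF genes 2 rose, OsARF15 and OsARF24, and none fell. Over all genes tested the share called was 7.36%, with 2.71% higher, against 18.2% called in shoots. The members were thus called in roots about as often as genes in general. The median log2 change was -0.01 for the Aux/IAA genes and 0.20 for the ARF genes, against 0.02 over all genes.

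OsIAA25 had 2.36 CPM (N-W+) and 1.81 CPM (N-W-) in N22 and 3.56 and 4.18 CPM in IR64 under low nitrogen, against 0.689 CPM (N+W-) and 0.517 CPM (N+W+) in N22 and 0.912 and 1.33 CPM in IR64 (log2 change 1.78, SE 0.37, edgeR adjusted p = 0.0298). The groups did not overlap, and most values were below those of shoots. OsIAA10 had 53.7 and 57.2 CPM in N22 and 52.5 and 57.6 CPM in IR64, against 35.5 and 37.1 CPM in N22 and 29.5 and 36.3 CPM in IR64 (0.68, SE 0.15, edgeR adjusted p = 0.0386). It was a small difference with little spread within either group.

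OsARF15 had 67.7 and 66.4 CPM in N22 and 50.8 and 73.6 CPM in IR64 under low nitrogen, against 33.0 and 33.8 CPM in N22 and 26.9 and 44.5 CPM in IR64 (log2 change 0.91, SE 0.19, edgeR adjusted p = 0.0300), without overlap. OsARF24 had 28.7 and 25.4 CPM in N22 and 30.5 and 36.5 CPM in IR64, against 13.7 and 11.7 CPM in N22 and 14.3 and 25.5 CPM in IR64 (0.93, SE 0.22, edgeR adjusted p = 0.0445). Its groups met at IR64 N+W+ and N22 N-W-. The root calls rested on the full set of libraries: leaving out each in turn left 0 Aux/IAA genes called, or 1 without N22 N-W-, and 0 to 1 ARF genes. Without the 2 IR64 root libraries high in KNOX reads, OsARF15 (0.97) and OsARF24 (1.10) stayed called, OsIAA25 (1.83, edgeR adjusted p = 0.0577) and OsIAA10 (0.67, edgeR adjusted p = 0.0655) did not, and 4 other Aux/IAA genes were called, OsIAA12 (-0.80), OsIAA13 (-0.75) and OsIAA14 (-1.20) as lower and OsIAA20 (0.82) as higher. In that fit 10.1% of all genes were called.

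Of the 6 Aux/IAA genes that rose in low-nitrogen shoots, OsIAA27 was not tested in roots and the others were not called there. OsIAA14 had 3.15 and 3.86 CPM in N22 roots and 2.02 and 3.26 CPM in IR64 roots under low nitrogen, against 8.46 and 8.47 CPM in N22 and 4.31 and 2.18 CPM in IR64 (log2 change -0.81, edgeR adjusted p = 0.174). The values were -0.30 for OsIAA30, -0.58 for OsIAA3_2, 0.08 for OsIAA21_1 and -0.57 for OsIAA13. OsIAA12 had 35.1 and 64.1 CPM in N22 and 36.7 and 45.0 CPM in IR64, against 68.7 and 94.9 CPM in N22 and 77.6 and 61.7 CPM in IR64, and narrowly missed the threshold (-0.78, SE 0.19, edgeR adjusted p = 0.0528).

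**Figure D4:**
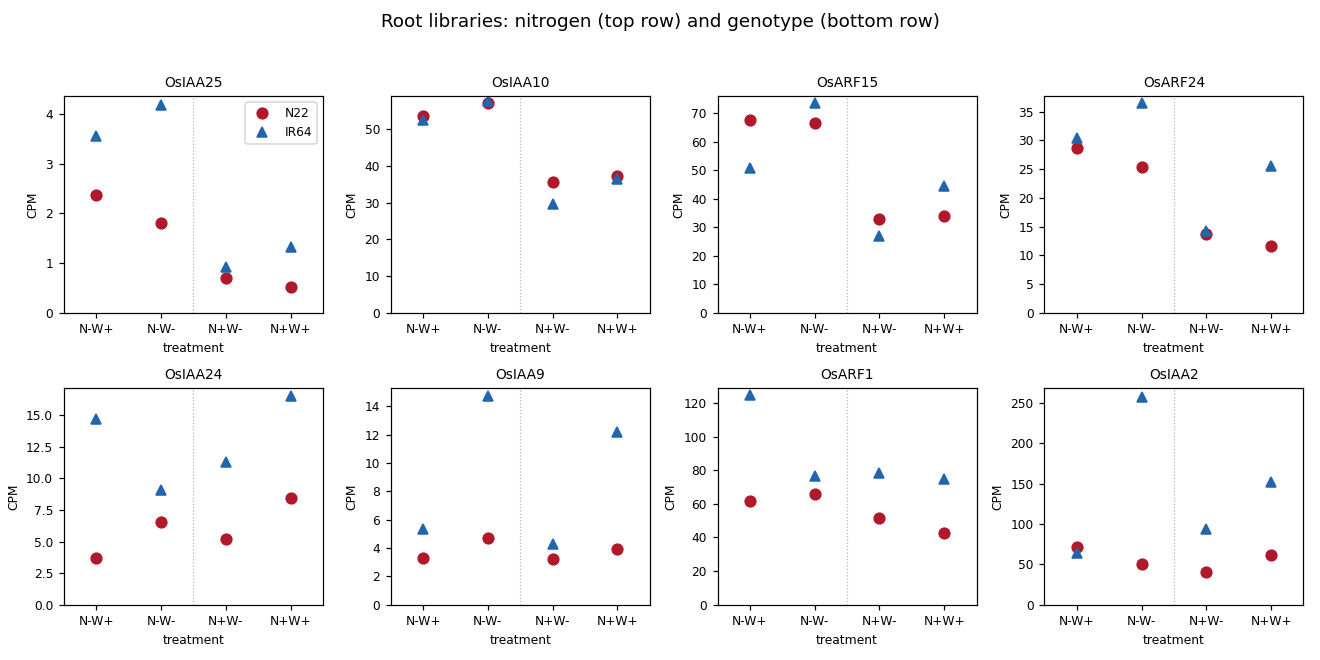
Level in CPM (linear axis from 0) of 8 genes in each of the 8 root libraries, with low nitrogen on the left of each panel, N22 as circles and IR64 as triangles. The upper row holds the genes called for low nitrogen (OsIAA25, OsIAA10, OsARF15 and OsARF24), all higher under low nitrogen, and the lower row OsIAA24, OsIAA9 and OsARF1, called as lower in N22, beside OsIAA2, which was not called in roots.

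Whether the response to nitrogen itself differed between tissues was tested as the difference of the log2 changes, roots minus shoots, over all 16 libraries. The fit held no term for the pool of plants, so that root and shoot libraries of the same pool were treated as independent. Of 27 Aux/IAA genes, 8 differed, 7 with a lower value in roots and 1 with a higher one, and of 25 ARF genes 4 differed, 2 in each direction. Over all genes tested the share was 14.2%, with 8.83% lower and 5.37% higher in roots. OsIAA14 had the largest difference (-5.35, SE 0.51, edgeR adjusted p = 0.000336), followed among genes with more than a few reads by OsIAA30 (-3.27, SE 0.52, edgeR adjusted p = 0.00334), OsIAA3_2 (-2.93, SE 0.49, edgeR adjusted p = 0.00428), OsIAA21_1 (-2.11, SE 0.30, edgeR adjusted p = 0.00198) and OsIAA13 (-1.98, SE 0.38, edgeR adjusted p = 0.008). OsIAA25, higher under low nitrogen in roots and lower in shoots, was the Aux/IAA gene that differed the other way (2.90, SE 0.42, edgeR adjusted p = 0.00208). OsIAA27 (-3.73, SE 1.06) and OsIAA12 (-1.33, SE 0.33) also passed, with edgeR adjusted p of 0.0408 and 0.023.

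Among the ARF genes, OsARF16 (-1.50, SE 0.36, edgeR adjusted p = 0.0205) and OsARF8 (-1.21, SE 0.34, edgeR adjusted p = 0.04) had the lower values in roots. OsARF15 (1.00, SE 0.29, edgeR adjusted p = 0.0455) and OsARF4 (0.97, SE 0.28, edgeR adjusted p = 0.0467) had the higher ones, and OsARF4 was called in neither tissue alone (0.34 in roots and -0.50 in shoots). OsARF15 lost its call in 20 of 21 other settings, OsARF4 in 19 and OsARF8 in 15, whereas OsIAA14, OsIAA30, OsIAA3_2, OsIAA25, OsIAA21_1 and OsIAA13 kept theirs in all 21. Without the 2 IR64 root libraries high in KNOX reads those 6 were the Aux/IAA genes called, and edgeR called 0 ARF genes (7 at an unadjusted p under 0.05), beside 6.17% of all genes. DESeq2, on all libraries, called 9 Aux/IAA and 6 ARF genes, beside 19.9% of all genes. Leaving out each library in turn left 6 to 10 Aux/IAA genes, and 7 ARF genes without N22 shoots under N-W- but 0 to 2 without any other library. The dividing-cell markers differed as well, with 19 of 34 tested lower in roots by the same test, beside 8.83% of all genes.

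**Figure D5:**
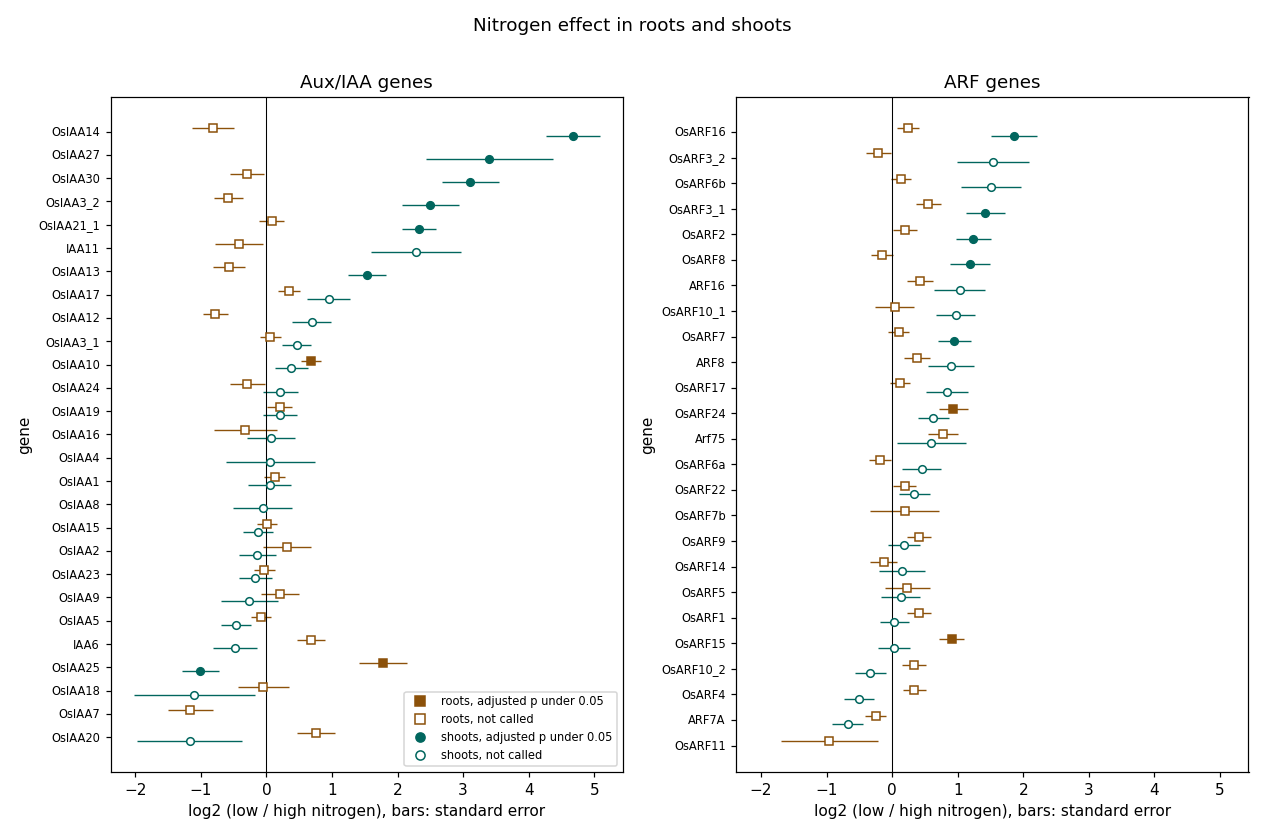
Log2 change of low over high nitrogen with its standard error for each Aux/IAA and ARF gene, in roots (squares) and shoots (circles), where filled symbols mark genes with an adjusted p under 0.05. OsIAA14 (4.67), OsIAA30 (3.11), OsIAA3_2 (2.50) and OsIAA21_1 (2.32) stand far to the right in shoots with root values near 0 or below, and OsIAA25 has opposite signs in the 2 tissues.

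Low water, averaged over nitrogen and genotype, gave no call in either family. edgeR called 0 of 24 Aux/IAA and 0 of 25 ARF genes in roots (3 and 0 at an unadjusted p under 0.05) and 0 of 26 and 0 of 23 in shoots (3 and 1). DESeq2 called 0 in both tissues. Over all genes the share called was 0.0% by edgeR in each tissue, and 0.828% in roots and 0.419% in shoots by DESeq2. In roots edgeR also called 0 members without the 2 IR64 libraries high in KNOX reads, with 4 Aux/IAA and 0 ARF genes at an unadjusted p under 0.05, beside 0.00397% of all genes called. The Aux/IAA gene with the smallest p was OsIAA30 in roots (log2 change 0.77, SE 0.27, edgeR adjusted p = 0.567) and OsIAA23 (Os06g0597000), known for maintaining the root quiescent centre, in shoots (0.96, SE 0.25, edgeR adjusted p = 0.798). OsIAA30 in shoots (1.01, SE 0.40) and OsIAA3_2 in roots (0.63, SE 0.22) came next, with edgeR adjusted p of 0.884 and 0.567. The ARF genes with the smallest p were OsARF5 (0.76, SE 0.34) and OsARF10_2 (0.33, SE 0.18) in roots, and OsARF5 (0.75, SE 0.31) and OsARF15 (0.46, SE 0.25) in shoots, with edgeR adjusted p between 0.644 and 0.959. Low-water changes lay between -0.36 and 0.77 for the Aux/IAA genes and between -0.44 and 0.76 for the ARF genes in roots, and between -0.73 and 1.59 and between -0.60 and 0.75 in shoots. In shoots 24 of the 26 Aux/IAA and 18 of the 23 ARF values were positive. The share of positive values over all genes was not taken, so these counts are not shown to be particular to the families.

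The interaction of nitrogen with water, that is, whether the change with low nitrogen was larger under low water, passed for no member either. edgeR called 0 in both families and tissues, with 3 Aux/IAA and 2 ARF genes in roots and 6 and 3 in shoots at an unadjusted p under 0.05, beside 0.00412% of all genes in roots and 0.0% in shoots. DESeq2 called 1 member, OsIAA23 in shoots, as lower, beside 0.676% of all genes in shoots and 1.99% in roots. OsIAA23 had 17.3 CPM (N-W+), 19.8 CPM (N-W-), 32.9 CPM (N+W-) and 10.6 CPM (N+W+) in N22 shoots and 39.1, 31.3, 96 and 19.6 CPM in IR64 shoots. It was thus highest under low water with high nitrogen in both genotypes (interaction -2.04, SE 0.50, edgeR adjusted p = 0.509). OsIAA30 (-2.93, SE 0.81) and OsARF15 (-1.61, SE 0.50) had the same adjusted p, and OsARF22 had a value of -1.13 (SE 0.47, edgeR adjusted p = 0.532).

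In roots the members with the smallest p for this interaction were OsIAA9 (Os02g0805100; 1.94, SE 0.58, edgeR adjusted p = 0.302) and OsIAA23 (0.88, SE 0.32, edgeR adjusted p = 0.366), and OsARF5 (1.67, SE 0.68) and OsARF22 (0.87, SE 0.37) among the ARF genes, with edgeR adjusted p of 0.403 and 0.417. OsIAA9 had 5.31 CPM in IR64 roots under N-W+, 14.7 CPM under N-W-, 4.31 CPM under N+W- and 12.2 CPM under N+W+, so that its high values fell in the 2 libraries high in KNOX reads. OsIAA2 (Os01g0190300) had 63.8, 257, 94.1 and 152 CPM in the same order, with the same 2 libraries on top. Without these 2 libraries the interaction of OsIAA9 was 0.77 (edgeR adjusted p = 0.833) and that of OsARF5 0.83 (edgeR adjusted p = 0.886). edgeR then called 0 members, with 6 Aux/IAA genes and 1 ARF gene at an unadjusted p under 0.05, beside 0.203% of all genes.

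N22 and IR64 differed at few members. Reads of both were mapped to the Nipponbare reference, from which the paper calls both genotypes quite distinct. The paper gives lower mapping rates for the N22 shoot libraries than for the IR64 shoot libraries. In ratios between the genotypes, a difference in mapping and one in transcript level cannot be told apart. In roots 2 of 24 Aux/IAA genes and 1 of 25 ARF genes were called, all lower in N22, beside 14.0% of all genes (7.33% lower). OsIAA24 had 3.67 CPM (N-W+), 6.52 CPM (N-W-), 5.21 CPM (N+W-) and 8.47 CPM (N+W+) in N22, against 14.7, 9.08, 11.3 and 16.5 CPM in IR64, with no overlap (log2 ratio of N22 over IR64 -1.13, SE 0.27, edgeR adjusted p = 0.0315). OsARF1 (Os11g0523800) had 61.9, 65.7, 51.5 and 42.9 CPM in N22 and 125, 76.8, 78.2 and 74.9 CPM in IR64 (-0.66, SE 0.18, edgeR adjusted p = 0.0498), also without overlap. OsIAA9 had 3.32, 4.71, 3.25 and 3.93 CPM in N22, against 5.31, 14.7, 4.31 and 12.2 CPM in IR64 (-1.10, SE 0.29, edgeR adjusted p = 0.0431). Without the 2 IR64 libraries high in KNOX reads it was not called (-0.54, edgeR adjusted p = 0.323), whereas OsIAA24 (-1.55, edgeR adjusted p = 0.0163) and OsARF1 (-0.81, edgeR adjusted p = 0.0433) were. That fit also called IAA6 (Os01g0741900; -0.93) and IAA11 (-0.81) as lower and OsARF3_1 (0.81) as higher in N22, beside 16.8% of all genes. When single libraries were left out, 0 Aux/IAA genes were called without IR64 N+W+ or N22 N+W+, 1 without an N+W- or N-W- library and 2 without an N-W+ library, and OsARF1 was called only without an N-W- library.

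In shoots 2 of 26 Aux/IAA genes differed, beside 6.62% of all genes, and DESeq2 called 7, beside 13.8% of all genes. The share of gene reads in introns, a sign of RNA quality, was between 6.38% and 11.1% in N22 shoots and between 4.98% and 5.77% in IR64 shoots, and its part in the genotype differences was not tested. OsIAA25 was higher in N22, with 6.49 CPM (N-W+), 18.7 CPM (N-W-), 19.3 CPM (N+W-) and 26.4 CPM (N+W+), against 2.85, 4.16, 5.11 and 9.56 CPM in IR64 (log2 ratio 1.70, SE 0.29, edgeR adjusted p = 0.0171). Only the N22 N-W+ library lay within the IR64 range. OsIAA2 was lower in N22, with 45.1, 59.9, 63.7 and 64.8 CPM, against 166, 121, 195 and 99.9 CPM in IR64 and no overlap (-1.28, SE 0.29, edgeR adjusted p = 0.0443). edgeR called 0 of 23 ARF genes, whereas 3 had an unadjusted p under 0.05 and 1 was called by DESeq2. The smallest p belonged to OsARF5 (1.20, SE 0.31, edgeR adjusted p = 0.0656), at 26.0, 24.0, 30.3 and 20.5 CPM in N22 and 7.89, 17.1, 16.4 and 5.89 CPM in IR64, followed by OsARF8 (-0.80, SE 0.31, edgeR adjusted p = 0.176). Leaving out any of the 4 high-nitrogen shoot libraries left 0 Aux/IAA genes called, and leaving out any of the 4 low-nitrogen ones left 2.

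No member responded differently to nitrogen in the 2 genotypes by the test of that interaction. edgeR called 0 in both families and tissues, with 0 at an unadjusted p under 0.05, and the share over all genes was 0.0%. DESeq2 called 0 members, beside 0.0165% of all genes in roots and 0.0917% in shoots. The fit had 2 residual degrees of freedom. The Aux/IAA gene with the smallest p was OsIAA18 (Os05g0523300) in shoots, with an interaction of 3.40 (SE 1.65), and OsIAA14 in roots (-1.02, SE 0.61).

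A description of single pairs of libraries, with no replicate check, adds the order of the stresses within a genotype. Each stress library was set against the N+W+ library of its genotype and tissue, so that the 3 comparisons of a genotype and tissue share that library. A gene was counted where the log2 ratio passed 2 in size and either library reached 1 CPM, and 95% exact binomial intervals cover counting error only. In N22 shoots, 8 of 24 Aux/IAA and 4 of 25 ARF genes were higher by this rule under N-W+ (17.1% of all genes), 4 of 23 and 1 of 24 under N-W- (9.96%), and 3 of 24 and 0 of 25 under N+W- (6.57%). In IR64 shoots, 6 of 24 and 4 of 23 were higher under N-W+ (14.5%), 6 of 25 and 4 of 23 under N-W- (15.7%), and 4 of 26 and 0 of 23 under N+W- (4.6%). Of all 31 Aux/IAA cases in shoots 21 had the whole interval beyond the limit, and 4 of the 15 ARF cases did. In roots, where between 2.55% and 8.0% of all genes met the rule (N22: 8.0% for N-W+, 6.12% for N-W- and 2.55% for N+W-, and IR64: 7.69%, 6.96% and 5.48%), 1 case in each family did, both in N22 under N-W+: OsIAA25 was higher (2.08, interval 0.79 to 3.93) and OsARF11 (Os04g0664400) lower, on 3 reads against 12.

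OsIAA30 met the rule in all 6 shoot comparisons. In N22 its log2 ratio to N+W+ was 4.50 for N-W+, 3.04 for N-W- and 2.67 for N+W-, and in IR64 the ratios were 4.66, 4.85 and 2.16. OsIAA14 and OsIAA21_1 met it in the 4 low-nitrogen comparisons and in neither N+W- comparison. Under N+W- in IR64, the ratio of OsIAA30 had an interval of 1.78 to 2.57, which crosses the limit, and that of OsIAA14 was 1.68 (interval 0.68 to 2.96, on 44 reads against 9), so that these genes cannot be told apart by the rule there. Under N+W-, IR64 shoots were also beyond the limit for OsIAA3_2 (2.40), OsIAA23 (2.29) and OsIAA1 (2.01), and N22 shoots for OsIAA4 (2.39, on 12 reads against 2) and OsIAA20 (2.32, on 21 reads against 4). No Aux/IAA case in shoots was lower, and the 2 lower ARF cases were those of OsARF13 (Os04g0690600) in N22, on 0 reads under N-W+ and 1 read under N-W- against 7 reads under N+W+.

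Some neighbouring Aux/IAA genes had similar levels across the libraries. OsIAA30 (chromosome 12, 25310893 to 25316150 on IRGSP-1.0) and OsIAA3_2 (25325555 to 25327111) are 9404 bases apart with 0 genes between them, and their log2 levels had a Pearson r of 0.93 over the 16 libraries. IAA11 (chromosome 3, 24198649 to 24202021) and OsIAA12 (24212554 to 24213858) are 10532 bases apart, also with 0 genes between them, and had an r of 0.91. The libraries share tissues, genotypes and depth, so these correlations are a description. Members that are not neighbours were not correlated, so the values are not shown to be particular to neighbours. OsIAA27, OsIAA28 and OsIAA29 form a cluster on chromosome 11 (6335893 to 6358201), in which only OsIAA27 had enough reads to be tested.

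Other genes of the auxin pathway were counted from lists of gene names. Of the receptors, TIR1 and OsAFB2, edgeR called 0 of 2 for low nitrogen in roots and 0 of 2 in shoots, with 0 at an unadjusted p under 0.05 and 0 by DESeq2. Of 6 tested genes of auxin synthesis in roots (15 listed) 2 fell under low nitrogen, beside 7.36% of all genes called there in either direction. FIB, an aminotransferase of the TAA family, had 35.7 and 70.3 CPM in N22 and 20.9 and 41.5 CPM in IR64, against 95.1 and 76.5 CPM in N22 and 107 and 44.2 CPM in IR64 (log2 change -1.01, SE 0.21, edgeR adjusted p = 0.0290). YUCCA6, a flavin monooxygenase of the same route, had 7.26 and 13.3 CPM in N22 and 4.1 and 5.61 CPM in IR64, against 20.5 and 18.2 CPM in N22 and 13.5 and 14.8 CPM in IR64, with no overlap (-1.25, SE 0.21, edgeR adjusted p = 0.0144). Of 8 tested genes of the GH3 family, whose enzymes join auxin to amino acids, GH3-8 rose in low-nitrogen roots, with 764 and 626 CPM in N22 and 1121 and 996 CPM in IR64, against 254 and 349 CPM in N22 and 186 and 794 CPM in IR64 (1.28, SE 0.27, edgeR adjusted p = 0.0319). FIB, YUCCA6 and GH3-8 stayed called without the 2 IR64 root libraries high in KNOX reads (edgeR adjusted p = 0.0349, 0.0258 and 0.00968).

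In low-nitrogen shoots, 2 of 8 tested GH3 genes (9 listed) and 2 of 4 tested auxin influx carriers (5 listed) were called, all of them higher. Over all genes 18.2% were called and 10.7% were higher, and lists this short cannot be told from that share. Of 8 synthesis genes edgeR called 0, with 2 at an unadjusted p under 0.05 and 1 by DESeq2. OsGH3-1 had 14.5 and 7.69 CPM in N22 and 6.38 and 11.0 CPM in IR64, against 0.627 and 1.8 CPM in N22 and 0.543 and 0.319 CPM in IR64 (log2 change 3.67, SE 0.54, edgeR adjusted p = 0.00688), without overlap. OsLAX4 was almost absent at high nitrogen, with 12.4 and 0.562 CPM in N22 and 12.4 and 10.3 CPM in IR64, against 0 and 0 CPM in N22 and 0.435 and 0 CPM in IR64 (edgeR adjusted p = 0.0148). OsGH3-9 and OsLAX2 had edgeR adjusted p of 0.0177 and 0.0379 at levels below 10 CPM in every shoot library. The N22 N-W- library was lowest of the low-nitrogen group for OsLAX4, as it was for the dividing-cell markers, OsIAA30 and OsIAA3_2. In roots edgeR called 0 of 5 influx genes, with 2 at an unadjusted p under 0.05 and 0 by DESeq2.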

How the data were processed

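Reads were trimmed by the authors with sickle (Phred quality 30, length 36) and mapped in the CLC Genomics Workbench v.12 (mismatch cost 2, length fraction 0.5, similarity fraction 0.8) to RAP-DB gene models on IRGSP-1.0. The submitters' processing notes also name CASAVA. The authors deposited counts of total and of unique exon reads per gene, with no normalization. The authors also deposited TPM and RPKM, which divide the same counts by exon length and scale them to the library. TPM served to compare genes, and RPKM entered 1 alternative. Reads were not mapped again.

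Total exon reads were scaled by TMM within each tissue (factors 0.91 to 1.17 in roots and 0.66 to 1.34 in shoots), and over all 16 libraries for comparisons between tissues. After filterByExpr, edgeR's robust quasi-likelihood test was fitted per tissue with terms for genotype, nitrogen, water and nitrogen by water (3 residual degrees of freedom). Roots and shoots were compared with the pool of plants as a term (7 residual degrees of freedom). The difference in nitrogen response was fitted over all libraries without that term (6). Nitrogen by genotype was fitted apart (2). Benjamini-Hochberg adjusted p over all genes tested was called at 0.05. Single pairs used a prior count of 0.5, a log2 limit of 2 and a minimum of 1 CPM. The scripts were tested on simulated data. R 4.3.3, edgeR 4.0.16, limma 3.58.1, DESeq2 1.42.0, Python 3.11, numpy 2.4.6, pandas 2.3.3 and matplotlib 3.10.9 were used.

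Genes named with values were at most 12 called per family and comparison by size of change, with at least 10 reads over the libraries, or those of smallest p where none was called. Others were named after their values were seen. The members, gene lists and tests were chosen with earlier results of these data known. A list of co-repressors was dropped because only REL2 and OsAsp1 matched it. Alternatives were library totals, TMM over all libraries, DESeq2, no filter, unique reads and leaving out each library. The sequences of the members were not used here.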

Additional observations from a re-analysis of the deposited data

Results flagged for a closer look

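Genes whose response to low nitrogen differed between roots and shoots, by the test of that difference over 16 libraries, are given here as the log2 change in roots minus that in shoots. The difference was -5.35 for OsIAA14, -3.73 for OsIAA27, -3.27 for OsIAA30 and -2.93 for OsIAA3_2. It was -2.11 for OsIAA21_1, -1.98 for OsIAA13 and -1.33 for OsIAA12. OsIAA25 differed the other way, by 2.90. Among the ARF genes it was -1.50 for OsARF16 and -1.21 for OsARF8, and 1.00 for OsARF15 and 0.97 for OsARF4. The summed level of dividing-cell markers was between 149.5 and 495.7 CPM in low-nitrogen shoots and between 104.5 and 164.1 CPM in high-nitrogen shoots, with an overlap through N22 N-W-, and that of KNOX genes was between 5.46 and 26.9 CPM and between 1.31 and 4.84 CPM, without overlap. Their part in these differences was not tested.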

How the results depend on the processing

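No gene named by the rule changed direction in the comparison it was named for, and the other genes with values were not followed. Over these cases, leaving out 1 library kept the side of the threshold in 759 cases, lost the call in 199 and gained it in 2, and the other settings kept it in 401, lost it in 30 and gained it in 5. The cause of these moves was not tested. Leaving out each library gave 0 to 1 Aux/IAA and 0 to 1 ARF genes for low nitrogen in roots, 3 to 8 and 1 to 10 in shoots, 0 to 2 and 0 to 1 between genotypes in roots, 0 to 2 and 0 to 1 in shoots, 11 to 14 and 10 to 12 between tissues, and 6 to 10 and 0 to 7 for the difference in nitrogen response. For low water and for nitrogen by water it gave 0 to 0 in both families and tissues. For nitrogen by genotype it gave 0 to 0, except 0 to 1 for Aux/IAA genes in shoots, where the 1 call came without N22 N-W+.

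Scaling to library totals gave 1 Aux/IAA gene for low nitrogen in roots, 11 ARF genes for low nitrogen in shoots, 0 ARF genes between genotypes in roots, 1 Aux/IAA gene between genotypes in shoots and 9 ARF genes for the difference in nitrogen response. It moved the all-gene median to 0.28 in the genotype comparison of shoots, to 0.34 between tissues and to -0.48 for the difference in nitrogen response, where the share of higher calls was 11.9%, against 37.8% with TMM. DESeq2 gave 2 ARF genes between genotypes in roots, 8 ARF genes for low nitrogen in shoots, 7 Aux/IAA and 1 ARF genes between genotypes in shoots, and 1 Aux/IAA gene for nitrogen by water in shoots. Without the filter, 0 ARF genes were called between genotypes in roots, 1 in shoots, and 2 for the difference in nitrogen response. Unique reads gave 4 Aux/IAA genes for low nitrogen in roots, 2 ARF genes between genotypes in roots, and 4 Aux/IAA and 1 ARF genes between genotypes in shoots. The fits without the 2 IR64 root libraries high in KNOX reads were an alternative chosen after seeing the data. They called 4 Aux/IAA genes for low nitrogen in roots (10.1% of all genes) and 2 ARF genes between genotypes in roots (16.8%). For the difference in nitrogen response they called 0 ARF genes (6.17%).

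For single pairs in roots, the Aux/IAA count was 2 with library totals, 2 with no minimum, 0 with a minimum of 5 CPM and 0 with RPKM and a pseudocount of 1. The ARF count in roots was 0 with a minimum of 5 CPM and 0 with RPKM. In shoots the ARF count was 33 with library totals and 4 with RPKM. Library totals also raised the median change of all genes with low nitrogen in shoots. Member counts under alternative settings, here and above, lack the share of all genes unless it stands beside them. Such counts may move as genes in general do. No paired analysis was possible within a tissue, because each group has 1 library and the labels carry no replicate numbers. Between tissues the pool of plants was a term of the comparison of levels, but not of the difference in nitrogen response. Pooling leaves the spread between plants unmeasured, and the depth of N22 shoots under N-W+ limits genes near 1 CPM.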
